A study of Mus musculus with 14 samples.

Results

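A group of 9 genes of the TGF-beta and activin pathway was followed in repeatedly activated murine Th1 cells: Inhba, Tgfb1, Tgfbr1, Tgfbr2, Smad3, Smad7, Ski, Skil and Klf10. They were taken by gene symbol, with every probe set annotated to 1 of these symbols alone, which gave 20 probe sets for 9 genes among 34945 probe sets for 18193 genes. Of the 20, 14 were bright enough to be tested, among 17473 tested in all, and each of the 9 genes kept at least 1 of them. The filter was a mean log2 intensity over all arrays of at least 5.02, and the members nearest to it had means of 5.24 inside and 4.79 outside. The genes were chosen by pathway with results of these arrays known, and on which measured values they were selected is not recorded. The values below are therefore a description of these genes. The p-values come from 1 fit to 17473 probe sets, apart from those of alternative settings and of a Tgfbr2 ratio. They are not independent evidence for the choice.

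Ligands of the TGF-beta superfamily are secreted as dimers and bind pairs of type I and type II receptor kinases. For TGF-beta these are TGFBR1 and TGFBR2. For activin, a dimer of the protein encoded by Inhba, they are the activin receptors. Both ligands lead to phosphorylation of SMAD2 and SMAD3, which enter the nucleus with SMAD4 and change transcription. SMAD7 is induced by the signal and blocks the receptor, and SKI and SKIL (SnoN) are corepressors that bind the SMAD complex. KLF10 was found as a gene induced early by TGF-beta. In T cells, TGF-beta is known for restraining effector differentiation and for inducing Treg cells, and activin A is secreted by several kinds of activated immune cells.

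The series asked how gene expression in Th1 rep cells, which are CD4+ T cells driven through repeated rounds of antigen stimulation, changes when miR-31 is antagonised. Cells given Antagomir-31, which is complementary to miR-31 and blocks it, were read on 7 Affymetrix mouse arrays, 2 from 36 h, 2 from 48 h and 3 from 72 h after treatment, and cells given the unspecific control oligonucleotide Antagomir-SCR were read on as many at the same times, 14 in all. Both groups came from naive CD4+CD62Lhi cells of OT-II mice aged 6 to 10 weeks, whose T cells carry a transgenic receptor for an ovalbumin peptide, and were cultured with that peptide, irradiated antigen-presenting cells, IL-12 and anti-IL-4, with IL-2 from the second stimulation on. Both then received their antagomir at 1 µM in a serum-free medium made for siRNA delivery and were reactivated with plate-bound αCD3 and αCD28, so that no group is unstimulated. Cells given no oligonucleotide were not analysed here. The labels do not say whether replicates were separate cultures, so that the p-values take in the spread among these arrays alone, which may be technical. No probe set was annotated to the miR-31 gene, so that the level of the target of Antagomir-31 was not read here.

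The small RNA that Antagomir-31 is directed against is shown because every comparison below is set against its inhibition. Mature mmu-miR-31-5p lies at chr4:88910614-88910635 on the minus strand (RefSeq, GRCm38.p6), and the capitals mark its seed, bases 2 to 8.
mmu-miR-31-5p: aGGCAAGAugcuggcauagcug

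Inhba and Tgfbr1 were the members whose Antagomir-31 arrays lay above the Antagomir-SCR arrays at all 3 times, as described further on, and their promoter windows, 250 bases before to 50 bases after the annotated start, are shown for this reason. RefSeq windows were found for 6 of the 9 genes, 7 windows in all, and 2 of these belong to Tgfbr1. The motifs searched, on both strands, were a Smad box (CAGAC), AP-1 (TGANTCA), CRE (TGACGTCA), an NFAT core (TGGAAA), a GC box (GGGCGG) and a TATA box (TATAAA). The Inhba window is chr13:16011601-16011900 and the Tgfbr1 window nearest to its 5′ end is chr4:47352972-47353271, both on the plus strand of GRCm38.p6, and capitals mark the motif matches.
Inhba: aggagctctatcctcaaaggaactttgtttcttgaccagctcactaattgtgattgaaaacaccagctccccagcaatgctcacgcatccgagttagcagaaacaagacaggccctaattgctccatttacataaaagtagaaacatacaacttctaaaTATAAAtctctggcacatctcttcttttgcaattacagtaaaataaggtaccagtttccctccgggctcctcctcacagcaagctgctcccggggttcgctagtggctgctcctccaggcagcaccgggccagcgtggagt
Tgfbr1: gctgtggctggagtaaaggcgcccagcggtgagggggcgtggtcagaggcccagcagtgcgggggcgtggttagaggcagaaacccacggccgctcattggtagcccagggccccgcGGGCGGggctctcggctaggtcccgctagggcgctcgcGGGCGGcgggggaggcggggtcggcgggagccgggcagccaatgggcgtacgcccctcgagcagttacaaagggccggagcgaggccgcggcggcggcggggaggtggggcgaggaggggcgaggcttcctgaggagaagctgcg

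The Inhba window held 1 TATA box match, which starts 91 bases before the annotated start, and no match to the other motifs. A TATA box match was present in 13.6% of the 32851 mouse promoter windows of this length. The Tgfbr1 window held 2 GC box matches, a motif found in 35.7% of all windows. A Smad box, present in 49.6% of all windows, was matched in the second Tgfbr1 window and in that of Tgfbr2, and GC boxes were matched in those of Tgfb1, Smad3 and Ski. AP-1, CRE and the NFAT core, found in 7.81%, 1.79% and 21.4% of all windows, had no match in any of the 7. These are matches of letters and not sites shown to be bound.

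Among the ligands, Inhba, whose product forms activin A as a dimer and inhibin A together with the alpha subunit, was the 1 probe set of the 14 that passed the test, at 72 h, where 0.887% of all tested probe sets passed. Probe set 1422053_at read 3374 and 3546 at 36 h in Antagomir-31 cells, against 3085 and 3124 in Antagomir-SCR cells (RMA intensity, linear scale). At 48 h it read 2435 and 2603 in Antagomir-31 cells, against 2404 and 2321 in Antagomir-SCR cells. At 72 h it read 667, 661 and 678 in Antagomir-31 cells, against 539, 556.5 and 567 in Antagomir-SCR cells. At each time both or all Antagomir-31 arrays lay above all Antagomir-SCR arrays, and at 72 h the gap between the groups was wider than the spread within either. At 72 h Inhba was higher in Antagomir-31 than in Antagomir-SCR cells by a log2 fold change of 0.27 ± 0.043 (SE). This was a 1.21-fold difference with 95% confidence limits of 0.18 and 0.36 on the log2 scale (limma, Benjamini-Hochberg adjusted p = 0.0261 over 17473 probe sets). The log2 fold change was 0.16 at 36 h (adjusted p = 0.784) and 0.09 at 48 h (adjusted p = 0.879), and the effect at 72 h minus that at 48 h was 0.18 (adjusted p = 0.439).

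The call for Inhba at 72 h rests on a small margin. Its size stayed between 0.25 and 0.29 under 22 alternative settings. Only renormalizing the arrays or leaving out a 72 h array could move this size, since the other settings leave it unchanged by construction. The adjusted p ran from 0.0016 to 0.121 and was under 0.05 in 15 of the 22 settings. The call was lost with 1 array left out in 4 cases, namely Antagomir-31 replicate 2 (0.121) or 3 (0.0944) and Antagomir-SCR replicate 2 (0.0668) or 3 (0.0974) of 72 h. It was also lost with no filter on dim probe sets, with the 72 h arrays alone and with the replicate number as a block. In these bulk samples fewer cells of a type and less RNA per cell cannot be told apart. The second Inhba probe set, 1458291_at, read between 9.67 and 16.2 over all arrays, was below the filter and was not tested.

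Tgfb1, the gene of TGF-beta 1, stood at 157 ± 31.5 in Antagomir-31 cells and 160 ± 11.5 in Antagomir-SCR cells at 72 h (1420653_at, SD, n = 3 each). Its 3 Antagomir-31 arrays spread from 129 to 191 and spanned all 3 Antagomir-SCR arrays. The log2 fold changes of its 2 probe sets lay between -0.05 and 0.07 over the 3 times. For 1420653_at the 95% confidence limits at 72 h were -0.28 and 0.19.

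**Figure D1:**
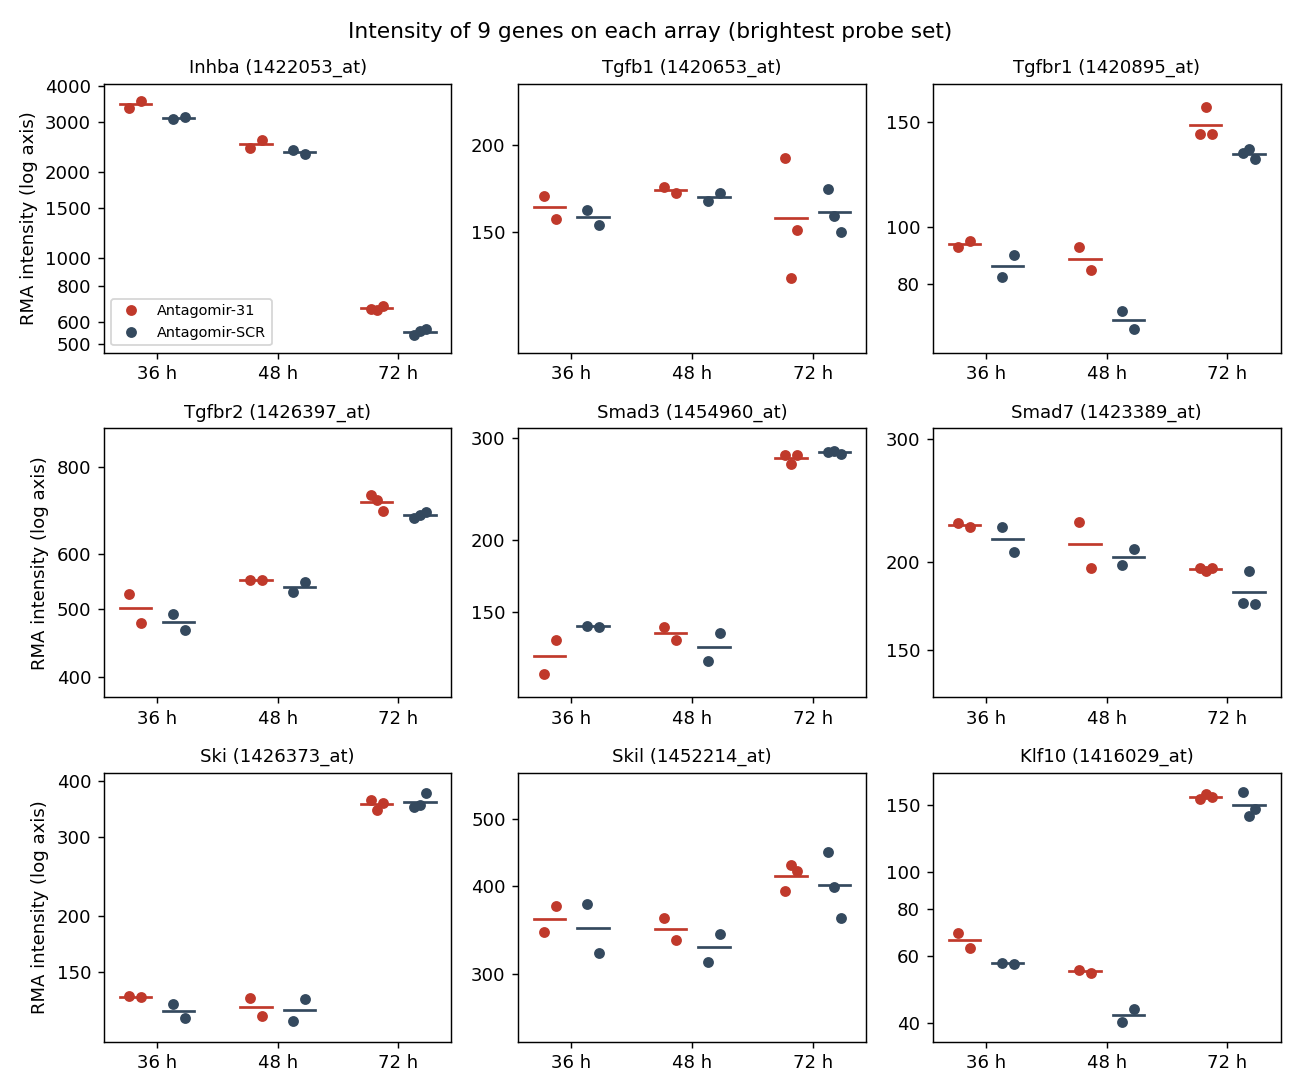
RMA intensity (log axis) of the brightest probe set of each of the 9 genes on each of the 14 arrays at 36 h, 48 h and 72 h. Points are arrays and horizontal bars are group means, with Antagomir-31 in red left of Antagomir-SCR in dark blue. For Inhba and Tgfbr1 the red points lie above the blue ones at each time, and Inhba is lower and Ski, Smad3 and Klf10 are higher at 72 h than at 36 h in both treatments.

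The type I receptor gene Tgfbr1, whose kinase phosphorylates SMAD2 and SMAD3, was higher on the Antagomir-31 arrays at each time without passing the test. Probe set 1420895_at read 92.5 and 94.5 at 36 h in Antagomir-31 cells, against 82.3 and 89.7 in Antagomir-SCR cells. It read 92.4 and 84.4 at 48 h in Antagomir-31 cells, against 72.2 and 67.4 in Antagomir-SCR cells. It read 143, 158 and 143 at 72 h in Antagomir-31 cells, against 133, 135 and 130 in Antagomir-SCR cells. The groups did not overlap at any of these times and the widest gap was at 48 h, where the log2 fold change was 0.34 ± 0.070 (SE, limma adjusted p = 0.473). At 36 h the log2 fold change was 0.12 (adjusted p = 1.0), at 72 h it was 0.16 (adjusted p = 0.168), and averaged over the 3 times it was 0.21 ± 0.038 (SE, adjusted p = 0.110). The other 2 Tgfbr1 probe sets read at most 16.3 and were below the filter.

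The 2 tested probe sets of the type II receptor gene Tgfbr2, which activates the type I receptor once ligand is bound, had fold changes of opposite sign at 72 h. Probe set 1425444_a_at read 73.3, 71.2 and 78.3 in Antagomir-31 cells, against 82.8, 84.9 and 87.8 in Antagomir-SCR cells. Probe set 1426397_at read 729, 716 and 691 in Antagomir-31 cells, against 676, 683 and 688 in Antagomir-SCR cells. The first was lower and the second higher on every Antagomir-31 array, with log2 fold changes of -0.20 ± 0.051 (SE, limma adjusted p = 0.0782) and 0.06 ± 0.046 (adjusted p = 0.508), and neither passed the test. The log2 ratio of the first to the second within an array, which depends on the affinity of the probes and is compared only between treatments, differed at 72 h by -0.26 (Antagomir-31 minus Antagomir-SCR). It ran from -3.33 to -3.14 in Antagomir-31 cells and from -3.03 to -2.97 in Antagomir-SCR cells (exact permutation test, two-sided, p = 0.1, the smallest that 3 against 3 arrays allow). At 48 h the ratio differed by -0.10 (exact p = 0.333, the smallest possible with 2 against 2) and at 36 h by -0.045 (exact p = 0.667). With so few arrays this exact test could not reach a p of 0.05 at any time. No such ratio was formed for the other genes with 2 tested probe sets, and nothing is read from this one. At 36 h and 48 h the log2 fold changes of 1425444_a_at were 0.02 and -0.07, and those of 1426397_at were 0.06 and 0.03. The remaining Tgfbr2 probe set, 1422019_at, read at most 7.54 and was not tested.

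Smad3, which carries the signal to the nucleus, had its lowest log2 fold change at 36 h. Probe set 1454960_at read 117 and 134 in Antagomir-31 cells, against 142 and 141 in Antagomir-SCR cells. Both Antagomir-31 arrays were below the Antagomir-SCR arrays, with a log2 fold change of -0.18 ± 0.069 (SE, limma adjusted p = 0.980). At 48 h the arrays overlapped and the log2 fold change was 0.08. At 72 h it was just below on each array, with 281, 271 and 280 in Antagomir-31 cells, against 284, 284 and 281 in Antagomir-SCR cells, a log2 fold change of -0.03 with 95% limits of -0.15 and 0.09. The other Smad3 probe sets, 1450471_at and 1450472_s_at, read from 19.9 to 38.4 and from 14.6 to 23.7 over all arrays, were below the filter and were not tested.

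Smad7, the inhibitory Smad, was read by 2 probe sets that were both slightly higher on average in Antagomir-31 cells at each time and passed no test. For 1423389_at the means were 226 ± 2.42 in Antagomir-31 cells and 216 ± 12.1 in Antagomir-SCR cells at 36 h, and 195 ± 1.1 and 181 ± 11.3 in the same order at 72 h (SD, n = 2 each and n = 3 each). The log2 fold changes of both probe sets ran from 0.05 to 0.14 over the 3 times, and the smallest unadjusted p was 0.0999.

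Ski, the first of the corepressor genes, was close between treatments. Probe set 1426373_at stood at 355 ± 9.23 in Antagomir-31 cells and 360 ± 13.5 in Antagomir-SCR cells at 72 h (SD, n = 3 each), and 1429192_at stood at 326 ± 29.3 in Antagomir-31 cells and 301 ± 22.2 in Antagomir-SCR cells. The log2 fold changes of Ski over both probe sets and 3 times ran from -0.04 to 0.15. Skil probe set 1452214_at likewise differed by 0.05 to 0.09 on the log2 scale, with overlapping arrays at each time.

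The other Skil probe set, 1422054_a_at, read 54.4 and 53.8 at 48 h in Antagomir-31 cells, against 48.8 and 40.4 in Antagomir-SCR cells. At 72 h it read 42.9, 36.8 and 39.1 in Antagomir-31 cells, against 41.6, 42.0 and 41.4 in Antagomir-SCR cells. The Antagomir-31 arrays were the higher ones at 48 h and overlapped the others at 72 h, with log2 fold changes of 0.29 ± 0.085 (SE, limma adjusted p = 0.711) and -0.08 (adjusted p = 0.595). The effect at 72 h minus that at 48 h was -0.36 ± 0.11 (SE, adjusted p = 0.361), which did not pass the test.

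Klf10, a transcriptional repressor induced by TGF-beta, showed the widest early difference of the 9 genes. Probe set 1416029_at read 69.1 and 63.2 at 36 h in Antagomir-31 cells, against 57.7 and 57.3 in Antagomir-SCR cells. It read 55.2 and 54.2 at 48 h in Antagomir-31 cells, against 40.2 and 43.5 in Antagomir-SCR cells. It read 156, 161 and 158 at 72 h in Antagomir-31 cells, against 162, 141 and 147 in Antagomir-SCR cells. The groups were apart at 36 h and 48 h and overlapped at 72 h, where 1 Antagomir-SCR array was above all Antagomir-31 arrays. The log2 fold change was 0.20 ± 0.071 at 36 h (SE, limma adjusted p = 0.873), 0.39 ± 0.071 at 48 h (adjusted p = 0.473) and 0.08 ± 0.058 at 72 h (adjusted p = 0.494). The effect at 72 h minus that at 48 h was -0.31 (adjusted p = 0.361), which did not pass the test.

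Across the 14 tested probe sets, 0 passed an adjusted p of 0.05 at 36 h, where 0.0114% of all tested probe sets did, and 0 passed at 48 h, where the share was 0.0%. At 72 h 1 passed, Inhba, beside 0.887% of all probe sets, 0.32% that were higher and 0.567% that were lower. Without adjustment, 3 of the 14 had a p under 0.05 at each of the 3 times, beside 4.89% of all tested probe sets at 36 h, 6.08% at 48 h and 18.5% at 72 h. Log2 fold changes above 0 were seen for 12 of 14 probe sets at 36 h, 12 at 48 h and 9 at 72 h, where all tested probe sets had 49.5%, 47.6% and 44.5%. The median log2 fold change of the 14 was 0.07, 0.08 and 0.05 at these times, against medians of all tested probe sets of -0.0005, -0.0042 and -0.013. Averaged over the 3 times, Inhba, Tgfbr1 and Klf10 each had an adjusted p of 0.110, and 0 of 14 passed, beside 0.0172% of all probe sets. An unadjusted p under 0.05 was seen for 5 of 14 in the average, 4 higher and 1 lower, beside 9.27% of all probe sets, 3.55% higher and 5.71% lower. For the effect at 72 h minus that at 36 h, 0 of 14 passed, beside 0.00572% of all probe sets, and 1, lower, had an unadjusted p under 0.05, beside 4.28% of all that were higher and 7.07% that were lower. For the effect at 72 h minus that at 48 h, 0 of 14 passed, beside 0.0172%, and 3 had an unadjusted p under 0.05, 1 higher and 2 lower, beside 9.89% of all, 3.91% higher and 5.98% lower.

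Counted by arrays that do not overlap, 8 of the 14 probe sets were higher and 1 was lower in Antagomir-31 cells at 36 h, where 14.6% of all tested probe sets were higher and 14.3% lower. At 48 h 6 were higher and 1 lower, beside 14.4% and 18.6%, and at 72 h 3 were higher and 2 lower, beside 9.47% and 15.0%. Inhba and Tgfbr1 were higher at all 3 times, as were 0.303% of all tested probe sets. Since the members were chosen with such values known, nothing is read from the distance between their counts and these shares.

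**Figure D2:**
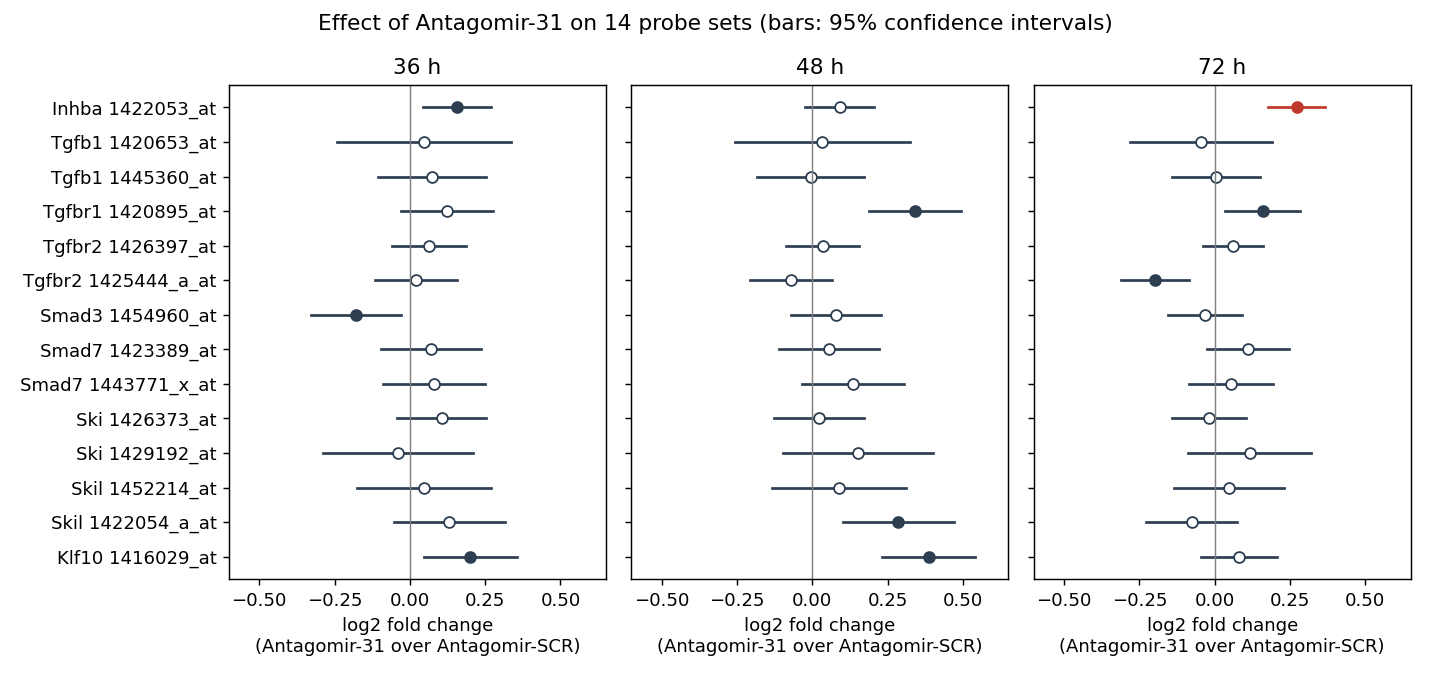
Log2 fold change of Antagomir-31 over Antagomir-SCR (x axis) for the 14 tested probe sets (rows) at 36 h, 48 h and 72 h, with 95% confidence intervals from limma. Filled points have an unadjusted p under 0.05, and the red one, Inhba at 72 h (0.27), has an adjusted p under 0.05. Tgfbr1 and Klf10 stand out at 48 h (0.34 and 0.39), and Tgfbr2 1425444_a_at is the lowest at 72 h (-0.20).

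Levels differed far more between times than between treatments for some of the genes. Normalization seems to have been run separately for each time, so that time and normalization cannot be told apart. A ratio of actin probe sets, given further on as a sign of RNA quality, also differed between 72 h and the earlier times. The differences in level are described without a test, beside values after quantile normalization of all 14 arrays. The median of all tested probe sets was 0.29 higher on the log2 scale at 72 h than at 36 h in Antagomir-31 cells and 0.30 higher in Antagomir-SCR cells, and 0.019 higher in Antagomir-31 cells after quantile normalization.

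Inhba was 5.17-fold lower at 72 h than at 36 h in Antagomir-31 cells and 5.60-fold lower in Antagomir-SCR cells, by log2 differences of -2.37 and -2.49 (-2.54 and -2.66 after quantile normalization). Most of this lay between 48 h and 72 h, where the log2 differences were -1.91 in Antagomir-31 cells and -2.09 in Antagomir-SCR cells (-2.17 and -2.35 after quantile normalization). In the order of its levels, 36 h was above 48 h and 48 h above 72 h, with no overlap of arrays between times in either treatment. Averaged over both treatments, only 0.4% of all tested probe sets were as low or lower in this difference.

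Ski and Klf10 went the other way. Ski was 2.69-fold higher at 72 h than at 36 h in Antagomir-31 cells and 2.93-fold higher in Antagomir-SCR cells by 1426373_at, and its other probe set gave 2.92-fold and 2.62-fold in the same order. After quantile normalization both Ski probe sets stayed past 2-fold, with log2 differences of 1.13 and 1.24 for 1426373_at and of 1.25 and 1.07 for 1429192_at. Klf10 was 2.39-fold higher in Antagomir-31 cells and 2.60-fold higher in Antagomir-SCR cells (log2 differences of 0.95 and 1.04 after quantile normalization). Between 48 h and 72 h its log2 differences were 1.53 and 1.84, which stayed past 2-fold (1.19 and 1.45) after quantile normalization. Its levels at 36 h lay above those at 48 h in both treatments.

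Smad3 was 2.22-fold higher at 72 h than at 36 h in Antagomir-31 cells and 2.0-fold higher in Antagomir-SCR cells, and was under 2-fold after quantile normalization (log2 differences of 0.84 and 0.67). The 2 Smad7 probe sets disagreed, since 1443771_x_at was 3.03-fold lower at 72 h than at 36 h in Antagomir-31 cells and 2.98-fold lower in Antagomir-SCR cells, while 1423389_at was 1.16-fold and 1.19-fold lower. After quantile normalization the log2 differences were -1.90 and -1.87 for 1443771_x_at and -0.52 and -0.59 for 1423389_at. At 72 h 1443771_x_at read only 21.6 to 24.2 in Antagomir-31 cells and 21.9 to 23.5 in Antagomir-SCR cells, with log2 means of 4.54 and 4.49 that lie below the filter, so that it was tested through its earlier levels and its folds are set against a dim signal. Tgfbr1, both Tgfbr2 probe sets, Tgfb1 and Skil stayed within 2-fold between 36 h and 72 h.

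By a rule of at least 2-fold in both treatments with arrays that do not overlap, 4 of the 14 probe sets were higher at 72 h than at 36 h, beside 6.84% of all tested probe sets, and 2 were lower, beside 2.25%. The lower ones were Inhba and the Smad7 probe set that was dim at 72 h. After quantile normalization 2 were higher (3.07% of all) and 2 lower (3.62% of all). At 72 h against 48 h 4 were higher, beside 6.39% of all, and 1 lower, beside 2.01%, and after quantile normalization 3 were higher (2.2% of all) and 2 lower (3.38% of all). Between 36 h and 48 h no member passed this rule in either direction, beside 0.0458% of all probe sets higher and 0.0401% lower.

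**Figure D3:**
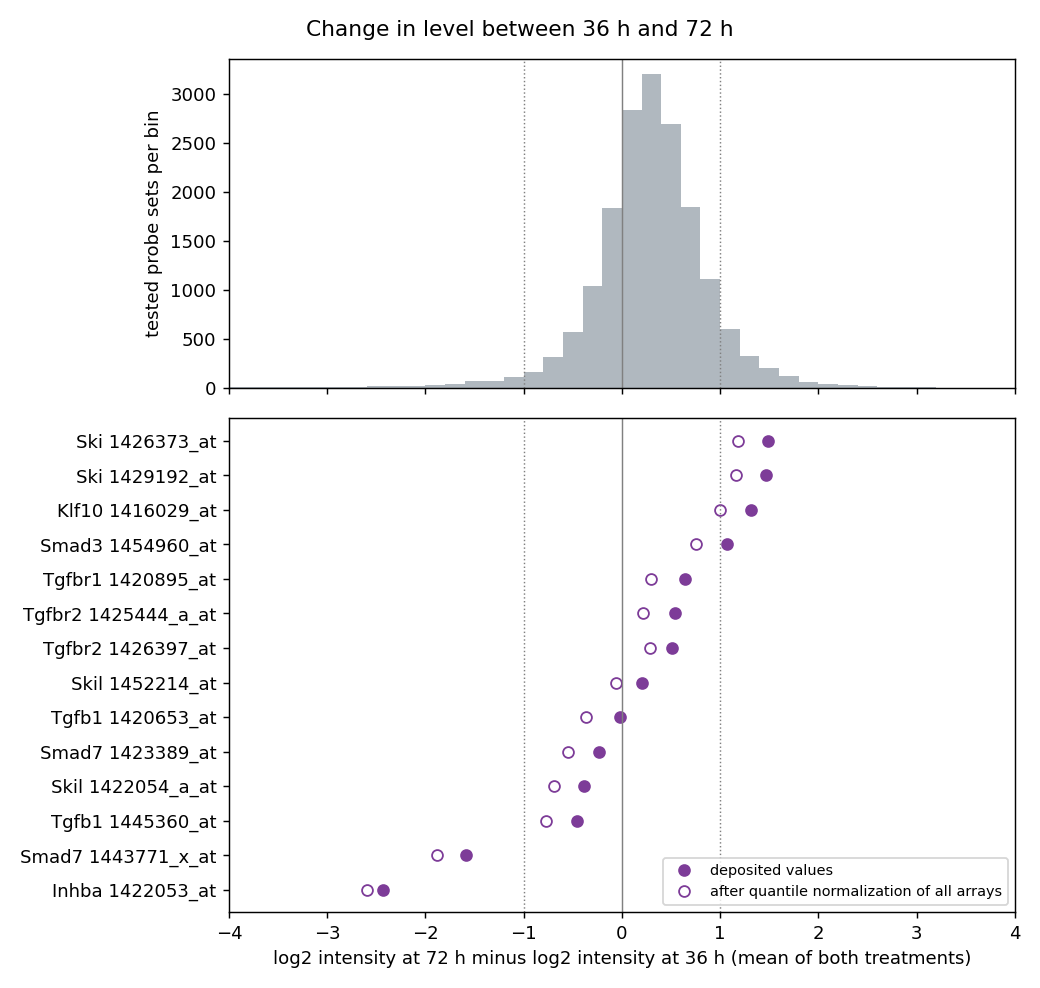
Upper panel, number of tested probe sets per bin of the difference in log2 intensity between 72 h and 36 h, as the mean of both treatments. Lower panel, the same difference for the 14 probe sets of the 9 genes from the deposited values (filled) and after quantile normalization of all 14 arrays (open), with dotted lines at 2-fold. Inhba lies in the left tail and Ski, Klf10 and Smad3 to the right.

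The rest of the pathway was read from lists of 76 other genes, of which 71 were on the arrays and 39 had a tested probe set (68 tested probe sets of 154). None of the 68 passed an adjusted p of 0.05 in any comparison of treatments. At an unadjusted p under 0.05, 3 were higher and 0 lower at 36 h, 7 higher and 3 lower at 48 h, and 3 higher and 7 lower at 72 h. The 3 at 36 h were all probe sets of 1 gene, Gadd45b, described further on. The shares of all tested probe sets were 2.68% higher and 2.21% lower at 36 h, 3.08% and 3.0% at 48 h, and 6.63% and 11.8% at 72 h. The lists were written with earlier results of these arrays known.

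Among 15 other ligand genes, 3 were tested, with log2 fold changes at 72 h of 0.17 for Bmp7, a bone morphogenetic protein, 0.04 for Inhbb, the beta B subunit of activins, and -0.02 for Inha, the inhibin alpha subunit. Inha read 40.4 and 38.3 at 48 h in Antagomir-31 cells, against 33.9 and 31.1 in Antagomir-SCR cells. That difference of 0.27 on the log2 scale did not pass the test (limma adjusted p = 0.695), and at 36 h the difference was 0.0081.

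Of the other receptor genes, 7 of 11 were tested. Tgfbr3 (betaglycan), a co-receptor that presents ligand to the type II receptor and binds inhibin, read 33.6, 28.5 and 41.0 at 72 h in Antagomir-31 cells, against 46.5, 46.3 and 41.8 in Antagomir-SCR cells (1425620_at). All Antagomir-31 arrays were below all Antagomir-SCR arrays, with one of each less than 1 intensity unit apart, and the log2 fold change of -0.40 ± 0.10 (SE, limma adjusted p = 0.0733) did not pass the test. The other tested Tgfbr3 probe set, 1433795_at, overlapped between treatments with a log2 fold change of -0.03. Acvr1 and Bmpr1a, type I receptors of bone morphogenetic proteins, had log2 fold changes of -0.16 and -0.17 in the probe sets with the smallest p, while the other Acvr1 probe set, 1448460_at, had 0.14 and the other 3 tested Bmpr1a probe sets had -0.05, 0.03 and 0.04.

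Of the other Smad genes, 4 of 6 were tested, and at 72 h the probe sets with the smallest p gave 0.12 for Smad4, the common partner, 0.10 for Smad1, which carries bone morphogenetic protein signals, and -0.04 for Smad2. Their other probe sets had -0.0066 and 0.09 for Smad4, 0.01 and 0.06 for Smad1, and -0.10 for Smad2. Among genes that store or activate latent TGF-beta, 4 of 11 were tested, and the values were 0.14 for Itgav, the alpha V chain of integrins that activate it (adjusted p = 0.120), -0.12 for Ltbp3 and 0.03 for Nrros, which both bind the latent form. The other tested probe sets of Itgav and Ltbp3, 1421198_at and 1438312_s_at, had -0.0018 and 0.0053.

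Of 16 inhibitors and regulators of Smads, 13 were tested, and Tgif1, a corepressor of Smad complexes, had the smallest p at 72 h. It read 116, 107 and 107 in Antagomir-31 cells, against 131, 125 and 125 in Antagomir-SCR cells. The groups were apart, with a log2 fold change of -0.21 ± 0.049 (SE, limma adjusted p = 0.0628). Pmepa1, which binds and sequesters SMAD2 and SMAD3, and Ppm1a, a phosphatase, had -0.15 and -0.19 in the probe sets with the smallest p, while the other Pmepa1 probe set, 1422706_at, had 0.14 and the other 5 tested Ppm1a probe sets ran from -0.07 to 0.09.

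Of 17 genes listed as induced by TGF-beta in T cells or other cells, 8 were tested, with 13 probe sets. Whether TGF-beta induces them in these cells was not tested. All 13 were above 0 at 48 h with a median log2 fold change of 0.13, 9 were above 0 at 36 h (median 0.08) and 5 at 72 h (median -0.03). Of all tested probe sets, 47.6% were above 0 at 48 h, 49.5% at 36 h and 44.5% at 72 h. Several of the 13 read the same gene, so that they are not separate counts. At an unadjusted p under 0.05 (limma), 3 were higher and 0 lower at 36 h and at 48 h, and 1 was higher and 2 lower at 72 h. The 3 at 36 h were all probe sets of Gadd45b, and those at 48 h were Gadd45b 1449773_s_at and 1450971_at and Id2 1435176_a_at. Among all tested probe sets, 2.68% were higher and 2.21% lower at this p at 36 h, and 3.08% and 3.0% at 48 h. The shares at 72 h were 6.63% and 11.8%. At 72 h the smallest p belonged to Cdkn1b, a cell cycle inhibitor (-0.22, adjusted p = 0.0658), Junb, an AP-1 subunit (-0.26, adjusted p = 0.0910), and Id2, an inhibitor of helix-loop-helix factors (0.21, adjusted p = 0.0937), and none passed the test. The other tested Id2 probe sets, 1422537_a_at and 1453596_at, had -0.05 and -0.0059.

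Gadd45b, a stress sensor that TGF-beta induces through Smads, was singled out after its values were seen. Probe set 1450971_at read 515 and 529 at 36 h in Antagomir-31 cells, against 439 and 442 in Antagomir-SCR cells. It read 505 and 513 at 48 h in Antagomir-31 cells, against 407 and 448 in Antagomir-SCR cells. The groups were apart at both times and overlapped at 72 h, where the means were 662 ± 12.9 in Antagomir-31 cells and 674 ± 9.48 in Antagomir-SCR cells (SD, n = 3 each). The log2 fold changes were 0.25 at 36 h (adjusted p = 0.357), 0.25 at 48 h (adjusted p = 0.473) and -0.03 at 72 h. Probe set 1449773_s_at gave 0.33, 0.29 and -0.03 at the 3 times, and 1420197_at gave 0.22, 0.02 and 0.0033. Of the 68 probe sets of these lists, 7 were higher and 3 lower at 48 h at an unadjusted p under 0.05 (limma). The 3 lower ones were Bmpr1a 1425491_at (-0.30), Smad5 1451873_a_at (-0.25) and Ltbp3 1438312_s_at (-0.13), and none passed the test.

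**Figure D4:**
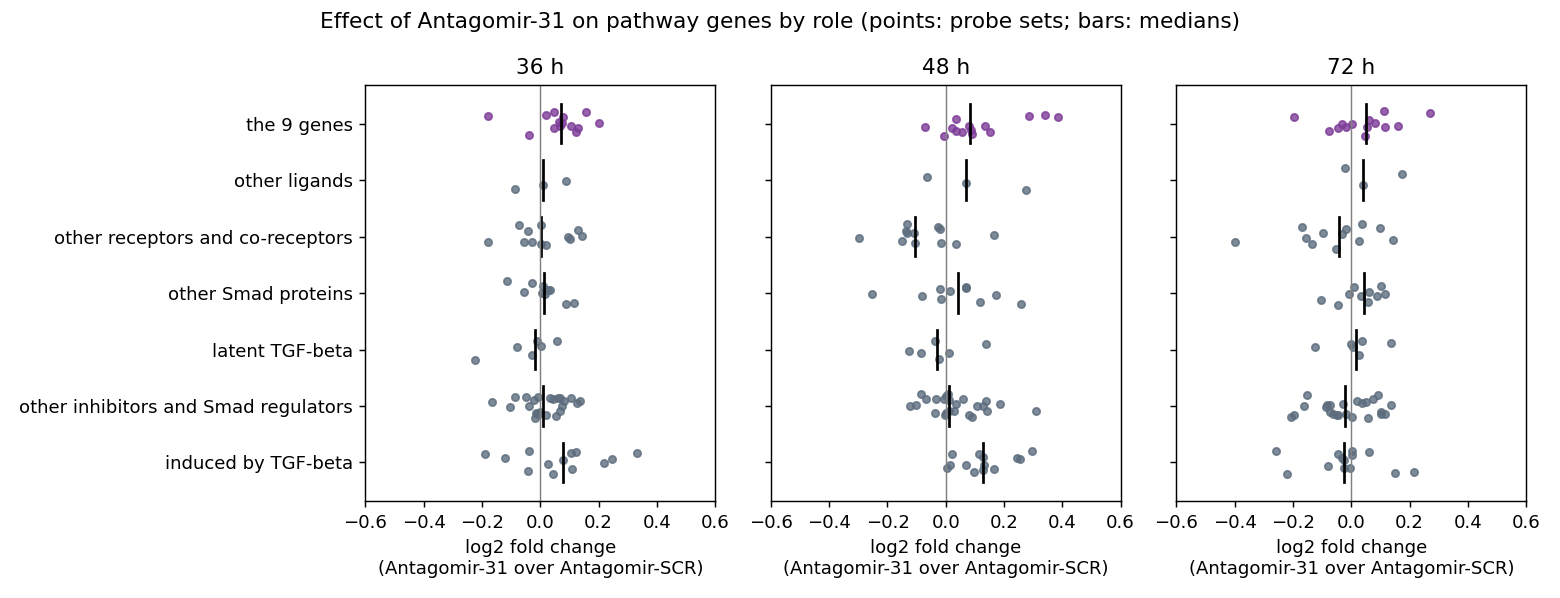
Log2 fold change of Antagomir-31 over Antagomir-SCR (x axis) for the tested probe sets of the 9 genes (purple) and of other pathway genes by role (grey) at 36 h, 48 h and 72 h. Points are probe sets and vertical bars are medians. The genes listed as induced by TGF-beta have a median of 0.13 at 48 h and -0.03 at 72 h, and none of the grey points passed the test.

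Over the 14 arrays, after the mean of each time was taken off, the genes closest to Inhba were Havcr2 (Pearson r = 0.92), which encodes the co-inhibitory receptor TIM-3, Rgs2 (r = 0.92), a regulator of G protein signalling, and Gzmf (r = 0.89), a granzyme. They were picked as the highest among all tested genes, the 14 points share the difference between treatments, and the values are a description. For Klf10 the closest were Ndrg1 (r = 0.94), D16Ertd472e (r = 0.89) and Enpp4 (r = 0.88), and for Tgfbr1 they were Smyd3 (r = 0.90), Ppp3ca (r = 0.89), the catalytic subunit of calcineurin, and Me1 (r = 0.88). Among the members themselves, Tgfbr1 varied most closely with Klf10 (r = 0.77) and Inhba (r = 0.61), while Inhba and Smad3 had r = -0.31. The closest gene to the brightest probe set was Klhl8 for Tgfbr2 (r = 0.93), Atpaf1 for Smad7 (r = 0.90), Zbed6 for Skil (r = 0.89), Tmem37 for Smad3 (r = 0.88) and Bcl2 for Ski (r = 0.88).

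The cell type of the labels was checked with marker genes. All 9 Th1 and CD4 T cell markers were above the filter, Tbx21 and Ifng among them, and 0 of 4 measured B cell markers were. Of the macrophage and monocyte markers 3 of 6 were above it, Csf1r (63.7 to 75.3 over all arrays), Cd14 (48.7 to 68.4) and Lyz2 (28.4 to 43.5), with Adgre1, Cd68 and Fcgr1 below. Of the Treg cell markers 3 of 4 were above it, Il2ra, Ctla4 and Ikzf2, with Foxp3 below. Among the measured dendritic cell markers 1 of 4 was above it, Siglech (31.3 to 43.5 over all arrays). Among the measured fibroblast, platelet and erythroid markers 1 of 6 was, Itga2b (66.5 to 85.6). The sums of both lists overlapped between treatments at 72 h. At 36 h the second sum ran from 148.9 to 149.2 in Antagomir-31 cells and from 149.3 to 151.3 in Antagomir-SCR cells. At 72 h the summed macrophage markers ran from 231 to 241 in Antagomir-31 cells and overlapped the 224 to 232 in Antagomir-SCR cells. The summed Treg cell markers ran from 2742 to 2823 in Antagomir-31 cells and from 2833 to 2913 in Antagomir-SCR cells, and the summed Th1 markers from 18736 to 19181 and from 19280 to 19612 in the same order. Both of these sums were lower in Antagomir-31 cells at 72 h. The largest reading in the Treg sum was Il2ra (1191 to 2422 over all arrays), while Foxp3 read 6.52 to 15.8. In the Th1 sum the largest was Ifng (8188 to 17166). These sums are therefore not a measure of the share of a cell type. At 36 h the summed Treg cell markers were the higher ones, 2140 to 2243 in Antagomir-31 cells and 2003 to 2071 in Antagomir-SCR cells, and at 48 h they ran from 2005 to 2021 in Antagomir-31 cells and from 1790 to 1991 in Antagomir-SCR cells. Of the CD8 T and NK cell markers 1 of 3 measured was above the filter, and the sum at 72 h ran from 79.5 to 80.6 in Antagomir-31 cells and from 82.0 to 83.6 in Antagomir-SCR cells. The part of these sums in the results for the 9 genes was not tested. The log2 ratio of 3′ to 5′ actin probe sets, a sign of RNA quality, overlapped between treatments at each time. Over both treatments it ran from 0.32 to 0.43 at 36 h, from 0.37 to 0.41 at 48 h and from 0.21 to 0.27 at 72 h. It was thus lower at 72 h than at the earlier times. One array, Antagomir-SCR replicate 4 of 72 h, was recorded to more decimals than the other 13, and without it Inhba at 72 h kept its call.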

How the data were processed

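The authors hybridised RNA of 14 samples to Affymetrix mouse arrays, 2 replicates a treatment at 36 h and 48 h and 3 at 72 h. Per the labels, GCOS, RMA and the affy package were named in the processing notes, their versions not stated there. What the authors deposited are linear RMA intensities. Array medians ran from 23.4 to 23.8 at 36 h, from 21.8 to 22.1 at 48 h and from 27.9 to 28.4 at 72 h, and normalization seems to have been run separately for each time. Precision is limited by how few arrays there are. The log2 of the deposited intensity was taken and no further normalization was applied. Of 45101 probe sets, 34945 had 1 gene symbol in the platform annotation, 932 had several and 9160 none, and 64 were controls.

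Probe sets with 1 symbol and a mean log2 of at least the median (5.02) entered a limma fit (limma 3.58.1, R 4.3.3) of 6 groups, 1 for each treatment at each time. The p-values were adjusted by Benjamini-Hochberg over 17473 probe sets. The fit was also run on simulated data as a check of the code. How well it recovers differences as small as those described here is not reported. Different probe sets of a gene were kept apart, and levels of different probe sets were not compared. The exception was the ratio of 2 Tgfbr2 probe sets, which was compared between treatments by an exact permutation test. The rest was done in Python 3.11.15. Every probe set of the 9 genes was accounted for. Members with an unadjusted p under 0.05 or a 2-fold difference between times were described in full, and of the other pathway genes up to 3 a list with the smallest p at 72 h were named. The members and lists were chosen with earlier results of these data known. Alternatives were no filter, a mean log2 of at least 6, 1 probe set a gene, a trended prior, arrays of the compared times alone, quantile normalization, median centring of each array within its time, the replicate number as a block and leaving out each array.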

Additional observations from a re-analysis of the deposited data

How the results depend on the processing

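Alternatives are given for the 18 results of Inhba, Tgfbr1, Tgfbr2 1425444_a_at, Smad3, Skil 1422054_a_at and Klf10 that had an unadjusted p under 0.05. Those of the other members were run but are not given. Over their 393 alternative values, 0 changed direction, 383 stayed on their side of the threshold, 7 lost the call, all for Inhba at 72 h, and 3 gained one. Inhba at 72 h lost it with no filter (adjusted p = 0.0935), with the 72 h arrays alone (0.0907) and with the replicate block (0.0680), beside the 4 single arrays named above. Tgfbr2 1425444_a_at at 72 h passed with a mean log2 of at least 6 (adjusted p = 0.0495) and without Antagomir-31 replicate 4 (0.0411), and Inhba averaged over times passed with a trended prior (0.00784). Of the 18 results, only Inhba at 72 h was called in the main fit, so that for the others staying meant staying uncalled. The filter, the trended prior and leaving out arrays of other times do not alter the log2 fold change at a single time. No change of direction could come from these settings there. The causes of the lost and gained calls were not tested.

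The number of probe sets called among all those tested moved more. At 36 h 2 were called, and 0 with no filter, 1 with a mean log2 of at least 6, 0 with 1 probe set a gene, 0 with a trended prior, 0 with the 36 h arrays alone and 0 to 2 with 1 array left out. At 48 h 0 were called (1063 at an unadjusted p under 0.05), and 0 to 39 with 1 array left out, the 39 without Antagomir-SCR replicate 2. At 72 h 155 were called, and 13 with no filter, 422 with a mean log2 of at least 6, 596 with a trended prior, 8 with the 72 h arrays alone and 7 to 570 with 1 array left out, the 7 without Antagomir-31 replicate 2 and the 570 without replicate 4. Median centring within each time gave 106 at 72 h. Quantile normalization gave 102 higher and 94 lower at 72 h, against 56 and 99. For the average 3 were called, and 0 with no filter, 13 with a trended prior and 0 to 12 with 1 array left out. For 72 h minus 36 h 1 was called, and 0 with no filter, 3 with a mean log2 of at least 6, 2 with 1 probe set a gene, 15 with a trended prior and 0 to 42 with 1 array left out. For 72 h minus 48 h 3 were called, and 0 with no filter, 5 with a mean log2 of at least 6, 16 with a trended prior, 0 with the arrays of these times alone and 0 to 9 with 1 array left out. Of the 14 probe sets, 6 passed the 2-fold rule between 36 h and 72 h, 4 after quantile normalization and 5 to 6 with 1 array left out.

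Same-numbered arrays of the 2 treatments had correlations of their deviations of 0.075 at 36 h, -0.18 at 48 h and -0.017, -0.012 and 0.15 at 72 h, and at 72 h not every array correlated best with its own number, so that the numbers were not taken to pair the arrays. With the replicate block 0 were called at 36 h, 48 at 72 h, and 0 for the average and both differences between times. Crossing the pairs at 48 h, added after seeing the data, gave 0 at 48 h, 0 for the average and 0 for 72 h minus 48 h.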
